A study of Mus musculus with 31 samples.

Results

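The 76 genes described here encode proteins of the cytosolic ribosome, 46 of the large and 30 of the small subunit. They were taken by symbol, as every gene named Rpl or Rps with a number, with or without a closing a or x, together with Rplp0, Rplp1, Rplp2 and Rpsa. Each of the 76 was present once among the 55487, 56980 and 56941 genes of 3 count tables, and all 76 had enough counts to be tested in each table. RNA was sequenced from Panc02 cells, a murine pancreatic adenocarcinoma line, in 3 experiments with 31 libraries in all. In the first, WT spheroids in Matrigel were kept in control medium (Ctrl, n = 3), in medium conditioned by untreated bone marrow-derived macrophages (M0-CM, n = 3) or in medium from macrophages given IFNγ and LPS (M1-CM, n = 3). In the second, WT and Cxcl5-/- cells were grown in 2D on plastic or in 3D as spheroids in Matrigel, with 3 libraries in each of the 4 groups. In the third, all cells were grown in 3D and were WT (n = 2), Cxcl5-/- (n = 2), Cxcl5-/- with a stabilized mutant of Hif1a overexpressed (Hif1a OE, n = 3) or Cxcl5-/- with Myc overexpressed (Myc OE, n = 3). Cxcl5 had been targeted with a lentiviral CRISPR vector and puromycin selection, and whether a clone or a pool was used is not given in the sources used here. The overexpressing cells carried retroviral constructs on the Cxcl5-/- background. No group overexpressed either gene in WT cells. The labels give the cell line of each library of the third experiment under a different Panc number, where the study's methods name Panc02.

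Each ribosome holds one copy of most of these proteins, and cells make them in balanced amounts, so their transcripts are usually abundant and move together. Many of the mRNAs begin at a C followed by a run of pyrimidines, the terminal oligopyrimidine (TOP) tract, through which mTORC1 and Larp1 control their translation and stability. Myc is known to raise the transcription of ribosomal protein genes, and growing tumor cells are known for a high demand for ribosomes.

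Transcript starts of members that the results turn on are shown first, since the TOP tract is the best known shared feature of this gene family. Each line gives 30 bases of RefSeq on GRCm38.p6, read 5′ to 3′ along the gene, with the annotated first base of the transcript at base 16. Capitals mark the tract, taken as a C followed by at least 4 more C or T and beginning within 5 bases of the start. A run of C and T that began further upstream is marked only from inside these 5 bases, as in Rpl35 and Rpl14. The first 7 lines hold a tract and the last 4 do not.
Rps6, chr4:86857353-86857382, minus strand: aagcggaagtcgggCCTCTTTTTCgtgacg
Rpl12, chr2:32961697-32961726, plus strand: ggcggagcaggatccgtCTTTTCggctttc
Rpl35, chr2:39005117-39005146, minus strand: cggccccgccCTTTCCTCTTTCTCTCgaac
Rps10, chr17:27635230-27635259, minus strand: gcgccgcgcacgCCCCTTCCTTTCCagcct
Rps21, chr2:180257364-180257393, plus strand: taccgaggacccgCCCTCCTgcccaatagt
Rpl14, chr9:120571502-120571531, plus strand: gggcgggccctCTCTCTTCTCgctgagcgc
Rps2, chr17:24720048-24720077, plus strand: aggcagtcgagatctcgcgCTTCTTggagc
Rpl22, chr4:152324421-152324450, plus strand: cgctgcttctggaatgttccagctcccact
Rplp0, chr5:115559452-115559481, plus strand: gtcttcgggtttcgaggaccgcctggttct
Rps28, chr17:33824548-33824577, minus strand: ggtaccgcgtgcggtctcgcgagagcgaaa
Rpl41, chr10:128549154-128549183, minus strand: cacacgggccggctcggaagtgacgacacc
A start window was found for 56 of the 76 symbols, 66 windows in all, and 29 of these windows (43.9%) held a tract, against 18.3% of all 32851 windows. The stretches so taken were 5 to 20 bases long, with a median of 8, and runs that began further upstream were cut. A C at the annotated first base with at least 4 more C or T after it, whatever came before, was present in 13 windows (19.7%), against 2.51% of all windows. These counts describe annotated starts, which can lie a few bases away from the start used by the cells. In the promoter windows of 250 bases before and 50 bases after each start, searched on both strands, CACGTG, the letters bound by Myc with its partner Max, was found in 8 of the 66 (12.1%, against 7.15% of all windows). ACGTG, which is also part of CACGTG, was found in 22 (33.3% against 19.6%) and GCGTG in 37 (56.1% against 32.4%). Both are written as the core of the sites that Hif1 binds. Windows of one gene can overlap and hold the same site. By symbol, CACGTG was found for 6 of the 56, ACGTG for 17 and GCGTG for 32, and the matching shares of all genes were not counted.

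Library totals ranged from 41542500 to 78498200 counts, rounded to 6 digits, and the mean count of a member was never below 3707 in any table, so counting error was small against the spread between libraries. The study's methods speak in general of biological replicates and independent experiments, but the labels do not tie the libraries of a group to separate cultures, so the p-values below measure the spread between these libraries, part of which may be technical. Krt8 was the highest epithelial marker in all 31 libraries, and 3 to 5 of 7 epithelial markers reached 1 CPM. Of the mesenchymal markers Vim, Cdh2 and Fn1, all 3 reached 1 CPM except in Myc OE replicates 2 and 3, where 2 did, and acinar, endocrine and endothelial markers summed to at most 2.81 CPM. Macrophage markers summed to 28.0 to 76.7 CPM over 6 genes, of which 1 to 4 reached 1 CPM. Cd14 was the highest of them in all 31 libraries, at 18.8 to 53.0 CPM, and made up 26.1 of the 28.0 CPM in 2D WT replicate 2. The targeted transcript did not follow the labels throughout. Cxcl5 stood at 37.4, 32.7 and 32.8 CPM in 2D Cxcl5-/- and 45.6, 47.3 and 49.1 in 2D WT, but at 65.5, 40.9 and 45.4 in the libraries labelled 3D Cxcl5-/- and 28.5, 24.5 and 28.0 in 3D WT. In the third experiment it was 36.6 and 40.2 CPM in Cxcl5-/- and 64.2 and 67.7 in WT. The cause of these differences in the Cxcl5 transcript was not tested. The paper states that the knockout was checked by immunoblot for the CXCL5 protein, whose level was not analysed here.

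Ribosomal protein transcripts took 3.38% to 3.58% of all counts in the conditioned medium experiment, 2.94% to 5.59% in the 2D and 3D experiment and 2.18% to 7.41% in the rescue experiment, as group means. With CPM divided by transcript length, Rpl41, Rps9, Rps18 and Rplp1 were among the 5 highest members in 2 or 3 of the tables and Rpl17 and Rps20 among the 3 lowest in all 3. Rpl41 encodes the smallest of these proteins and reached 2234 CPM per kb over the 2D and 3D libraries, and Rplp0, which anchors the stalk of the large subunit, reached 1644. At the other end Rps20 had 158 CPM per kb and Rpl17 also 158. The mean of Rps20 was 584 CPM, divided by an annotated transcript of 3706 bases, the longest of the family, and that of Rpl17 was 122 CPM. Of the 76 members 74 have copies elsewhere in the genome with at least 90% identity over at least 50% of the coding sequence, 1062 copies in all, and Rpl17 has 55 of them. Within one group its counts differed by up to 3.84-fold between libraries, and those of Rps16, which has 7 copies, by up to 2.65-fold. Rpl21 with 82 copies and Rpl29 with 66 differed by at most 1.58-fold and 1.37-fold. With its copies added, Rpl17 in Ctrl went from 42.5, 88.6 and 37.9 CPM to 449, 496 and 477. Its low level above thus leaves out the counts placed on its copies. Rps16 in Ctrl went from 119, 139 and 53.1 CPM to 137, 157 and 62.3. Values of Rpl17 and Rps16 are uncertain because of their spread between libraries, and its cause was not tested. Rps2 had 13832 and 13082 counts in rescue Cxcl5-/-, and 39181 and 41148 with its 56 copies added. Values and ranks of Rps2 below are without its copies and depend on where such reads were placed.

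**Figure D1:**
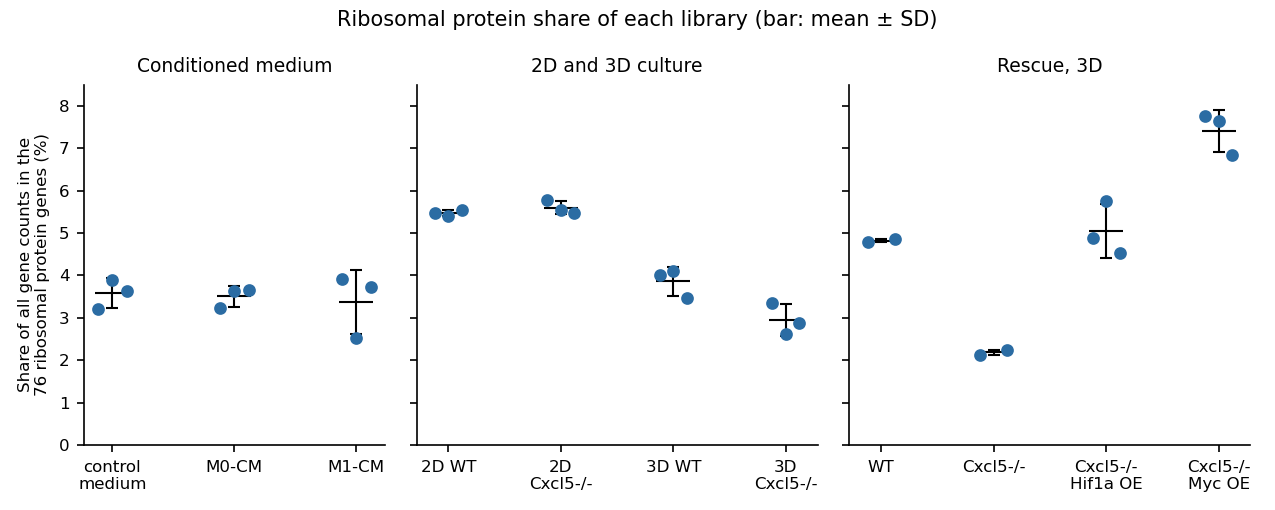
Share of all gene counts that fell in the 76 ribosomal protein genes (percent, y axis) in each library (points) of the 3 experiments, with the mean ± SD of each group. The share was near 3.5% with every medium, between 5.40% and 5.77% in 2D, lower in 3D, and in the rescue experiment lowest in Cxcl5-/- and highest in Myc OE.

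Macrophage-conditioned medium moved no ribosomal protein transcript past the test. Cxcl5 itself rose, from 101 ± 20.4 CPM in Ctrl to 682 ± 32.4 with M1-CM (mean ± SD, n = 3, log2 2.76 ± 0.17, adjusted p = 0.000474 by edgeR), and the comparison asks what the same medium did to the ribosomal protein genes. The shares of counts were 3.20%, 3.90% and 3.64% in Ctrl, 3.23%, 3.62% and 3.66% with M0-CM and 3.91%, 2.51% and 3.72% with M1-CM. The groups overlapped, and M1-CM replicate 2 stood below every other library. In edgeR's quasi-likelihood test with Benjamini-Hochberg adjustment over 19207 genes, 0 of 76 members were called for M1-CM against Ctrl, where 0.0156% of all genes were called, and 0 for M1-CM against M0-CM (0.0156% of all genes) and M0-CM against Ctrl (0% of all genes). The counts at an unadjusted p under 0.05 were also 0, and DESeq2 called 0 in each of the 3. The median log2 fold changes of the members were -0.08, -0.12 and 0.05 against medians of 0.01, -0.01 and 0.00 for all genes tested. Without M1-CM replicate 2 the first 2 medians turned to 0.14 and 0.09. The widest values belonged to Rps16, a small subunit protein, with 0.51 ± 0.34 (log2, SE) for M1-CM against Ctrl, and to Rps9, with -0.38 ± 0.25, both with an adjusted p of 0.965. Rpl35a (-0.32) and Rps12 (-0.31) were also at the low end in that comparison, and Rpl28 (0.18) at the high end. Relative to the family, described further on, no member was called for M1-CM against Ctrl either, where 0.00521% of all genes were higher. With SEs such as 0.24 for Rplp0 (-0.14, adjusted p = 0.967), small changes were not detectable here.

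In 2D, WT and Cxcl5-/- cells had overlapping levels of most ribosomal protein transcripts, and no member passed the test. The share of counts was 5.46%, 5.40% and 5.54% in WT and 5.77%, 5.54% and 5.47% in Cxcl5-/-. Rplp0 measured 2583, 2486 and 2817 CPM in 2D WT and 2874, 2693 and 2574 in 2D Cxcl5-/-. Rps6, the small subunit protein phosphorylated by S6 kinase, measured 800, 780 and 854 CPM in WT and 924, 847 and 843 in Cxcl5-/-. The 2 genotypes overlapped for both genes. By edgeR 0 of 76 members were called, where 3.86% of all 21367 genes were called higher and 3.17% lower, with 1 member at an unadjusted p under 0.05 and 0 called by DESeq2. The median log2 fold change was 0.02, and the values ran from -1.07 ± 0.38 for Rpl17 (adjusted p = 0.127) to 0.35 ± 0.24 for Rps16 (adjusted p = 0.511). The ranges of the 2 genotypes did not overlap for 9 members, among them Rpl31 (-0.22 ± 0.15) and Rps12 (0.17 ± 0.11). The share of all genes with ranges apart was not counted, for this or any later comparison. With so few libraries ranges can separate without a difference, so these counts are descriptions only.

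Growth in 3D went with lower levels of part of the ribosomal protein transcripts in WT cells. Of 76 members 28 fell and 1 rose in 3D WT against 2D WT, where 22% of all genes fell and 22.2% rose, and the median log2 fold change of the members was -0.28 against 0.00 for all genes. The fall was close to that of other coding genes within the family's range of transcript length and level. This range ran up to 3706 bases, the transcript of Rps20, where that of Rpl5 had 2045. It ran down to a mean of 122 CPM, that of Rpl17, so it was not matched to a typical member. Of the 735 protein-coding genes in it, outside the family and the related lists, 323 fell and 176 rose, with a median of -0.24. The share of counts was 4.01%, 4.10% and 3.46% in 3D WT. Rpl14, a large subunit protein, had 333, 315 and 319 CPM in 2D WT and 175, 184 and 164 in 3D WT, groups that were far apart, and fell by 0.89 ± 0.13 on the log2 scale (adjusted p = 6.04e-05). Rps12 (483 ± 4.58 and 279 ± 25.9 CPM, mean ± SD, n = 3), Rps2 (1690 ± 82.7 and 949 ± 324) and Rpl4 (1443 ± 85.97 and 964 ± 138) fell as well. Rps2 sits at the entry of the mRNA channel, Rpl4 lines the exit tunnel for the new protein, and Rps12 lies in the small subunit head. Rplp0 had 2614, 2167 and 2341 CPM in 3D WT and overlapped with 2D WT. The count of members called moved from 29 to 16 without 3D WT replicate 3. Scaling to library totals in place of TMM gave 59 members lower and 0 higher, beside 31.4% of all genes lower and 16.7% higher. Relative to the family, 14 members went up and 10 down, beside 27.3% and 8.49% of all genes. Epithelial markers summed to 546 to 593 CPM in 2D WT and 852 to 1096 in 3D WT, mesenchymal markers to 3810 to 3958 and 6402 to 7241, and fibroblast markers to 169.7 to 184 and 150.1 to 158, while the small noncoding RNA genes Rn7s1, Rn7s2, Rn7sk, Rpph1 and Rmrp took 11.3% to 12.03% and 13.98% to 16.9% of counts. The part of these values in the result was not tested. In bulk libraries fewer cells that express a gene strongly and less of its RNA in each cell cannot be told apart.

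In the libraries labelled 3D Cxcl5-/- nearly the whole family fell against 2D Cxcl5-/-. Of 76 members 75 were called lower and 0 higher, where 28.2% of all genes were called lower, and the ranges of the 2 groups did not overlap for any of the 76. The median log2 fold change was -1.04, a 2.06-fold lower level, against 0.11 for all genes. Of these 735 coding genes in the range of the family 506 were lower, with a median of -0.65. Rplp0 measured 1417, 1056 and 1163 CPM in 3D Cxcl5-/-, below every library of the other 3 groups, and fell by 1.16 ± 0.11 (adjusted p = 9.43e-07). Rps6 measured 536, 341 and 396 CPM and fell by 1.04 ± 0.14, and Rpl5, a partner of 5S rRNA, measured 644, 437 and 523 CPM after 1341, 1194 and 1182 in 2D and fell by 1.21 ± 0.14. Without copies added, the lowest log2 fold changes were those of Rps16 (-2.31 ± 0.25), Rps2 (-1.63 ± 0.20) and Rpl30 (-1.50 ± 0.17). Rpl27a (-0.54 ± 0.13) and Rpl28 (-0.61 ± 0.13) were at the high end and fell too. Rpl17 was not called (-0.81 ± 0.38, adjusted p = 0.0819). With its copies added it had 715, 669 and 650 CPM in 2D Cxcl5-/- and 498, 308 and 341 in 3D Cxcl5-/- and was called lower (-0.85 ± 0.14, adjusted p = 0.000166). From 2D to 3D Cxcl5-/- the epithelial markers went from 450 to 484 CPM to 217 to 236. The mesenchymal markers went from 2481 to 2760 to 6374 to 9289 and the fibroblast markers from 171 to 184 to 392 to 449. Vim was the highest mesenchymal marker in 2D Cxcl5-/- (1542 to 1745 CPM) and Fn1 in 3D Cxcl5-/- (5695 to 8649). The part of these markers in the result was not tested.

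Between the genotypes in 3D, 67 of 76 members were lower in Cxcl5-/- than in WT and 0 were higher, where 25.3% of all genes were lower and 19.7% higher. The median log2 fold change was -0.73, a 1.66-fold lower level, against -0.04 for all genes, and 62 members had ranges that did not overlap. Of the 735 other coding genes in the range of the family 486 were lower and 74 higher, with a median of -0.49. For Rplp0 the 3D values given above, 2614, 2167 and 2341 CPM in WT and 1417, 1056 and 1163 in Cxcl5-/-, amount to -0.97 ± 0.11 (adjusted p = 9.26e-06). Rpl22, an RNA-binding protein of the large subunit, had 349, 371 and 325 CPM in WT and 199, 138 and 154 in Cxcl5-/-, which is -1.09 ± 0.12 (adjusted p = 5.49e-06). Rps10, a small subunit protein near the mRNA entry, had 501, 419 and 428 CPM in WT and 236, 165 and 184 in Cxcl5-/- (-1.20 ± 0.12, adjusted p = 4.13e-06). These 3 genes fell in every Cxcl5-/- library below every WT library. Rpl34 (-1.23 ± 0.14) and Rps16 (-2.07 ± 0.25) were the other members at the low end, Rps16 at 302, 258 and 223 CPM in WT and 60.1, 75.3 and 50.8 in Cxcl5-/-.

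Among the 9 members not called in that comparison were Rpl14, Rpl17, Rpl27a, Rpl35a, Rpl36a, Rps12, Rps21 and Rps28. Rpl14 had 175, 184 and 164 CPM in 3D WT and 216, 139 and 161 in 3D Cxcl5-/-, ranges that overlapped (-0.02 ± 0.13, adjusted p = 0.916), and with library totals in place of TMM its value turned to 0.35. Rpl14 and Rps12 were also among the members that fell in 3D WT. Of functional groups, all 4 stalk proteins (Rplp0, Rplp1, Rplp2 and Rpl12, which recruit elongation factors) were lower, with values from -0.97 to -0.52. All 3 of Rpl5, Rpl11 and Rpl23, which bind Mdm2 when ribosome assembly is disturbed, were lower, from -0.65 to -0.52. Of 15 genes that are mutated in Diamond-Blackfan anaemia, an inherited failure of red cell formation, 13 were lower, among them Rps19 (-0.71 ± 0.12) and Rps26 (-1.18 ± 0.16), and 3 of the 4 X-linked members, Rpl10, Rpl39 and Rps4x, were lower. The large subunit had 41 of 46 members lower with a median of -0.76 and the small subunit 26 of 30 with a median of -0.70. The whole family had 67 of 76 lower, so the counts of these groups mostly repeat that of the family. No difference between a group and the family was tested.

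The call in 3D kept its direction in every setting tried but not its size. With library totals as the scale the all-gene median went from -0.04 to 0.35, and 47 members were lower and 1 higher, beside 35.9% of all genes higher and 11.4% lower, and the members' median was -0.37. TMM factors were 0.82 to 0.91 in 3D WT and 1.01 to 1.22 in 3D Cxcl5-/-. Replicate 1 of 3D Cxcl5-/- stood apart, with 22.3% of its counts in the 5 small noncoding RNA genes and a ribosomal protein share of 3.35% against 2.61% and 2.87%. Without it 75 members were lower. Epithelial markers summed to 852 to 1096 CPM in 3D WT and 217 to 236 in 3D Cxcl5-/-, with 4 of 7 at 1 CPM or more in every library. Fibroblast markers, 4 of 4 at 1 CPM or more in every 3D library, summed to 150 to 158 CPM in 3D WT and 392 to 449 in 3D Cxcl5-/-. Mesenchymal markers summed to 6402 to 7241 CPM in 3D WT and 6374 to 9289 in 3D Cxcl5-/-, and macrophage markers to 42.2 to 46.5 and 43.2 to 63.2. The highest mesenchymal marker was Vim in every 3D WT library, at 3521 to 4059 CPM. In every 3D Cxcl5-/- library it was Fn1, at 5695 to 8649 CPM, so the mesenchymal sums were not led by the same gene. The part of these values in the result was not tested.

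Whether the genotype effect differed between 3D and 2D was tested as an interaction. By that test 59 of 76 members had a lower genotype effect in 3D and 0 a higher one, where 16.1% of all genes had a lower one, and the median difference of the members was -0.73 against -0.05. Of the 735 other coding genes in the range of the family 381 had a lower one, with a median of -0.47. Rps10 (-1.28 ± 0.17, adjusted p = 0.000144), Rpl34 (-1.26 ± 0.20, adjusted p = 0.000471), Rpl22 (-1.05 ± 0.16) and Rplp0 (-1.02 ± 0.15, adjusted p = 0.000338) were among the 59, and Rpl14 (-0.07 ± 0.18) and Rps21 (-0.31 ± 0.21) were not. The count was 36 without 2D Cxcl5-/- replicate 1 and 39 without 3D Cxcl5-/- replicate 2, and 29 with library totals.

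**Figure D2:**
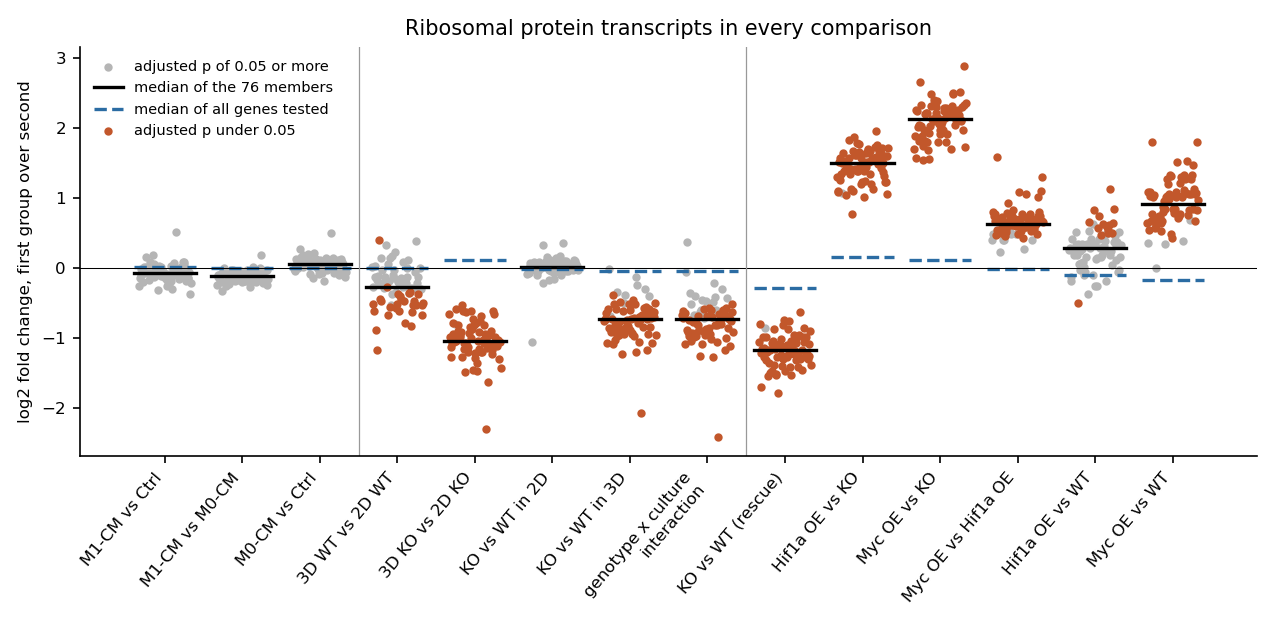
Log2 fold change (y axis) of each of the 76 members (points, coloured where the adjusted p was under 0.05) in the 14 comparisons (x axis), with the median of the members (black) and of all genes tested (blue, dashed). The members lie close to 0 in the conditioned media and between the genotypes in 2D, below 0 in 3D Cxcl5-/- against either control and above 0 in both overexpressing groups against Cxcl5-/-.

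In the rescue experiment the ribosomal protein transcripts were again lower in Cxcl5-/- spheroids than in WT spheroids. Of 76 members 75 were called lower and 0 higher, where 24.3% of all genes were lower and 17.6% higher, and the median log2 fold change was -1.18, a 2.26-fold lower level. The median of all 28730 genes was -0.30, and -0.01 with only genes of at least 10 counts in every library. Of the 753 other coding genes in the range of the family here, 419 were lower and 135 higher, with a median of -0.44. The share of counts was 2.13% and 2.23% in Cxcl5-/- and 4.79% and 4.85% in WT. No member had ranges that overlapped, with only 2 libraries in each group. Rplp0 measured 648 and 714 CPM in Cxcl5-/- and 1599 and 1593 in WT (-1.23 ± 0.16, adjusted p = 9.79e-05). Rpl35, which binds near the exit of the peptide tunnel, measured 206 in both Cxcl5-/- libraries and 726 and 704 CPM in WT, and at -1.79 ± 0.18 had the lowest value of the family. Rpl12 of the stalk (341 and 367 CPM against 1157 and 1165) and Rpl22 (150 and 147 against 433 and 432) were next, at -1.71 ± 0.18 and -1.54 ± 0.15. The smallest fall was that of Rps21, a small subunit protein, with 154 and 165 CPM against 243 and 249 (-0.63 ± 0.17, adjusted p = 0.0146), and those of Rpl41 (-0.75 ± 0.23) and Rplp1 (-0.77 ± 0.19) came next. As a share of the WT mean, the members stood at 28.8% to 64.8% in Cxcl5-/-, with a median of 44.2%, and 59 of 76 were below 50% of it. Rpl17 was not called as deposited (-0.86 ± 0.56, adjusted p = 0.226) and was called lower with its copies added (-1.53 ± 0.17). All 4 stalk proteins, all 3 Mdm2-binding proteins, all 15 anaemia genes and all 4 X-linked members fell, as did 75 of all 76 members.

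**Figure D3:**
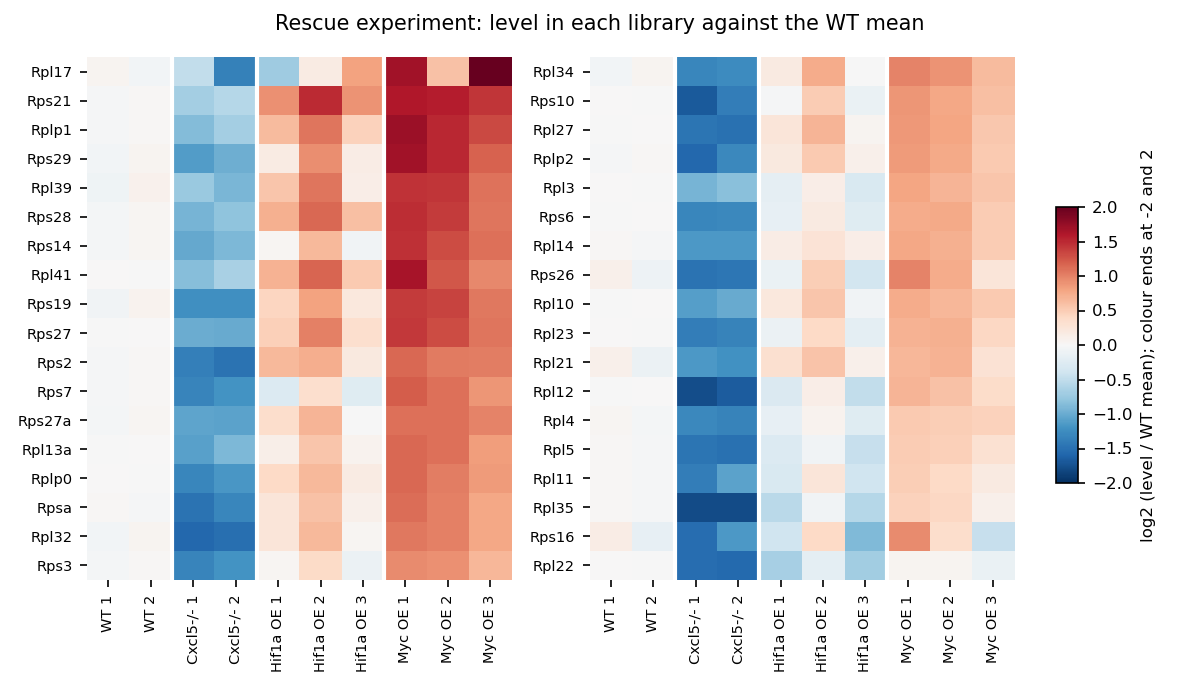
Level of members named by role or in the text (rows, ordered by the Myc OE mean) in each library of the rescue experiment (columns), as log2 of its CPM over the WT mean, in colour. Both Cxcl5-/- columns are blue in every row, the Hif1a OE columns lie near or above WT in most rows, and the Myc OE columns are red in nearly all rows, with Rpl22 near WT at the end.

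Overexpression of mutant Hif1a in Cxcl5-/- cells went with higher levels of the family. The Hif1a transcript measured 144 and 133 CPM in Cxcl5-/-, 258, 296 and 243 in Hif1a OE and 304 and 324 in WT, so it was higher than in Cxcl5-/- and did not exceed WT. Against Cxcl5-/-, 75 of 76 members were called higher and 0 lower, where 20.5% of all genes were higher, and the median level was 2.83-fold higher, against a median log2 change of 0.16 for all genes. Of the 753 coding genes in the range of the family 478 were higher and 103 lower, with a median of 0.51. The share of counts was 4.88%, 5.75% and 4.52%. Rplp0 measured 2102, 2504 and 1787 CPM, above both Cxcl5-/- libraries and both WT libraries (1.65 ± 0.15 against Cxcl5-/-, adjusted p = 8.76e-06). Without copies added, Rps2 rose most, to 1153, 1217 and 845 CPM from 287 and 266 (1.96 ± 0.15). Rpl32 (1.87 ± 0.17) and Rpl27 (1.82 ± 0.17) followed, while Rpl3, which shapes the peptidyl transferase centre, rose least (0.77 ± 0.13). Rps2 has 56 copies, so its first place holds only for the counts of its own gene. Replicate 2 of Hif1a OE was the highest of its group for most members. Against WT, 14 members were higher and 1 lower, where 13.9% of all genes were higher and 10.3% lower, a share near that of all genes, and 262 of the 753 coding genes in the range of the family were higher and 128 lower. Rps21 was the highest of these with 466, 695 and 461 CPM against 243 and 249 (1.13 ± 0.16, adjusted p = 0.000675), then Rps28 (0.85 ± 0.16) and Rpl41 (0.82 ± 0.21), and Rpl22 was the one lower member, with 274, 379 and 266 CPM against 433 and 432 (-0.50 ± 0.14, adjusted p = 0.0239). This count was the least stable of all: 44 higher and 1 lower with a replicate block, although the replicate numbers were not found to pair the libraries, 5 higher and 3 lower with DESeq2 size factors, 2 and 4 called without WT replicate 1 and 2, and 29 called without Hif1a OE replicate 3.

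Overexpression of Myc in Cxcl5-/- cells went with the highest levels. Myc measured 22.3 and 20.0 CPM in Cxcl5-/-, 49.3 and 46.1 in WT, 23.0, 26.8 and 25.6 in Hif1a OE and 548, 525 and 397 in Myc OE. All 76 members were called higher than in Cxcl5-/-, where 21.6% of all genes were higher and 18% lower, the ranges of no member overlapped, and the median log2 fold change was 2.13 (4.38-fold) against 0.11. Of the 753 coding genes in the range of the family 455 were higher and 126 lower, with a median of 0.49. The share of counts was 7.75%, 7.65% and 6.84%. Rplp0 measured 3535, 3243 and 2874 CPM and Rps6 1398, 1424 and 1194, against 339 and 343 for Rps6 in Cxcl5-/- and 835 and 843 in WT. Rps19, a small subunit protein, was at the high end, with 1170.5, 1135 and 930.0 CPM after 190.3 and 191 (5.66-fold, adjusted p = 1.1e-06), and Rpl22 rose least, to 449, 451 and 395 CPM from 150 and 147 (1.54 ± 0.15). Against WT, 71 members were higher and 0 lower, where 17.1% of all genes were higher, with a median of 0.91 against -0.17, and 287 of the 753 coding genes in the range of the family were higher (median 0.13). Rpl11, Rpl22, Rpl35, Rps16 and Rps26 were the 5 not called. Library totals gave 60 higher and 1 lower, beside 8.62% of all genes higher and 21.6% lower.

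Between the 2 overexpressing groups 63 of 76 members were higher in Myc OE and 0 lower, where 9.54% of all genes were higher and 9.73% lower, and the median difference was 0.63 (1.55-fold). Of the 753 coding genes in the range of the family 146 were higher and 142 lower, with a median of 0.01. Rpl17 (1.59 ± 0.46), whose counts spread widely, Rps7 (1.11 ± 0.15), Rps14 (1.05 ± 0.17) and Rps29 (1.01 ± 0.20) were at the high end. Rps7 had 1286, 1199 and 1032 CPM in Myc OE and 460, 705 and 469 in Hif1a OE, ranges that did not overlap. Rpl21 (0.22 ± 0.13) and Rpl10 (0.40 ± 0.13), at the low end, did not pass the test. The count was 39 without Hif1a OE replicate 1 and 40 without Myc OE replicate 1. The group means of all 76 members followed one order, Cxcl5-/- below Hif1a OE below Myc OE. Against the WT mean, Hif1a OE stood at 70.8% to 220% (median 122%) and Myc OE at 99.9% to 349% (median 188%), with 13 members below WT in Hif1a OE and 1, Rpl22, in Myc OE. Neighbours in this order did not pass the test for 13 members between Hif1a OE and Myc OE. The 5 small noncoding RNA genes took 8.91% to 10.3% of counts in Cxcl5-/-, 11.7% to 12.2% in WT, 16.7% to 20.7% in Hif1a OE and 18.2% to 21.2% in Myc OE, and 27353 and 27506 genes had at least 10 counts in the WT libraries against 19732 to 21560 in the others. Epithelial markers summed to 287 to 302 CPM in Cxcl5-/-, 855 to 901 in WT, 704 to 837 in Hif1a OE and 267 to 311 in Myc OE, with 4 or 5 of 7 at 1 CPM or more. Mesenchymal markers, 2 or 3 of 3 at 1 CPM or more, summed to 12869 to 12899 CPM in Cxcl5-/-, 7780 to 7921 in WT, 5161 to 6792 in Hif1a OE and 2984 to 3399 in Myc OE. Fn1 held most of each sum. It measured 12328 and 12324 CPM in Cxcl5-/-, 4456 and 4573 in WT, 4343 to 6060 in Hif1a OE and 1966 to 2429 in Myc OE. A sum led by Fn1 does not describe Vim and Cdh2. Fibroblast markers summed to 371 to 377 CPM in Cxcl5-/-, 72.0 to 75.9 in WT, 129 to 167 in Hif1a OE and 309 to 341 in Myc OE, with 4 of 4 at 1 CPM or more. Macrophage markers summed to 34.4 to 34.6, 42.8 to 43.0, 44.9 to 63.2 and 59.7 to 76.7 CPM in the same order. The part of these values in the result was not tested. These comparisons share libraries, so their values are given side by side only.

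The fall in Cxcl5-/- spheroids can be set side by side in both experiments, which share no library. The 67 members called lower in the 2D and 3D experiment were all called lower in the rescue experiment. The log2 fold changes had a Pearson r of 0.33 and a Spearman rho of 0.38 over the 76 members, a description only, since members share libraries and scaling. All members lay below 0 in both, and 75 of 76 were called in the rescue experiment.

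**Figure D4:**
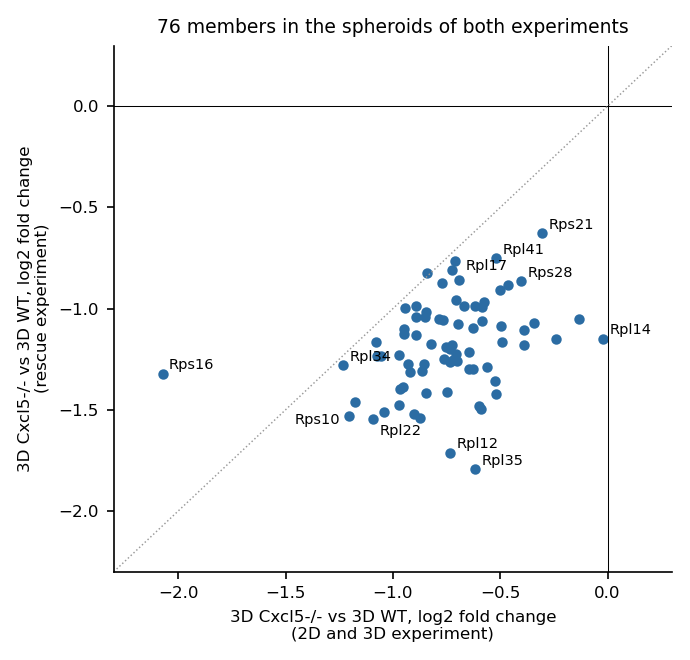
Log2 fold change of each of the 76 members in 3D Cxcl5-/- against 3D WT in the 2D and 3D experiment (x axis) and in the rescue experiment (y axis), with the line of equal values dotted. All points lie below 0 on both axes, most lie below the dotted line, and Rps16 lies far to the left.

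Members that moved apart from the family were found with a second fit, in which the library size was the summed count of the 76 members, so that a value gives the departure of a gene from its family and does not depend on how the whole library is scaled. In 3D, 10 members departed upward and 11 downward between the genotypes, and in the rescue experiment 5 and 6. In that fit 54.5% and 4.46% of all genes were called higher and lower in the first case, and 45.3% and 7.59% in the second. The summed count holds the members themselves, so departures upward and downward tend to balance by construction. The shares of all genes in this fit, in every comparison, carry the change of the family itself and are no background for the members. Where many genes are called, the adjustment is also less strict for the members. The same 4 members departed in both, all in the same direction, which is 19.0% of the 21 and 36.4% of the 11. Whether sets of 21 and 11 among 76 members would share as many by chance was not tested, so the overlap is a description only. Rps21 took 6.79, 6.25 and 6.66 of each 1000 ribosomal protein counts in 3D WT and 9.42, 8.73 and 8.64 in 3D Cxcl5-/-, and 5.54 and 5.65 against 8.22 and 8.32 in the rescue experiment (log2 0.44 ± 0.09 and 0.56 ± 0.13, adjusted p = 0.000905 and 0.0034). Rps28 took 5.05, 4.66 and 5.02 in WT and 6.85, 6.10 and 5.66 in Cxcl5-/-, and 6.32 and 6.61 against 7.94 and 8.22 (0.34 ± 0.10 and 0.32 ± 0.12). Rpl22 went the other way, with 7.5, 8.25 and 7.70 in WT and 6.01, 6.44 and 6.25 in Cxcl5-/-, and 9.87 and 9.78 against 7.999 and 7.39 (-0.33 ± 0.09 and -0.35 ± 0.13), as did Rps10 (-0.44 ± 0.09 and -0.34 ± 0.13). The groups did not overlap for any of the 4 in either experiment, but without any one of the 4 rescue libraries of these groups 3 or 4 members were called in place of 11, and which ones was not compared. In 2D no member departed between the genotypes, where 2.04% of all genes were called higher and 1.64% lower in this fit, and Rps21 took 8.497, 8.56 and 8.05 in WT and 8.40, 8.38 and 8.12 in Cxcl5-/-. Of the start windows shown above, those of Rps21 and Rps10 hold a tract and those of Rps28 and Rpl22 do not.

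Rpl14 and Rpl35, among others, departed in other comparisons. Rpl14 took 6.10, 5.96 and 5.71 of each 1000 counts in 2D WT, 5.90, 5.91 and 6.41 in 2D Cxcl5-/- and 6.51, 6.53 and 6.52 in 3D Cxcl5-/-, but 3.75, 4.09 and 3.88 in 3D WT (-0.60 ± 0.09 against 2D WT, adjusted p = 0.000181, and 0.74 ± 0.09 for 3D Cxcl5-/- against 3D WT, adjusted p = 2.59e-05). In the rescue experiment Rpl14 did not depart (0.04 ± 0.15). Rpl35 took 16.6 and 15.96 in rescue WT and 10.02 to 11.1 in the 8 other rescue libraries. Against WT it departed by -0.60 ± 0.12 in Cxcl5-/-, -0.63 ± 0.11 in Hif1a OE and -0.58 ± 0.11 in Myc OE. In Myc OE against Cxcl5-/- 6 members departed upward, among them Rps29 (0.40 ± 0.14) and Rps19 (0.39 ± 0.11), and 9 downward, among them Rpl22 (-0.56 ± 0.11), Rpl3 (-0.55 ± 0.11) and Rpl11 (-0.52 ± 0.12), where 1.53% and 63.4% of all genes were called higher and lower. Rpl22 took 5.57, 5.81 and 6.09 in Hif1a OE and 4.96, 5.26 and 5.42 in Myc OE, less than in either Cxcl5-/- library. Rps21 took 9.48, 10.7 and 10.6 in Hif1a OE, and against WT it departed upward in both overexpressing groups (0.87 ± 0.12 and 0.62 ± 0.12). In the remaining comparisons 15 members departed upward and 9 downward in 3D against 2D Cxcl5-/- (70% and 2.98% of all genes), 6 and 7 in the interaction (40.1% and 2.01%), 6 and 7 in Hif1a OE against Cxcl5-/- (2.46% and 51.7%), 5 and 2 in Myc OE against Hif1a OE (2.08% and 36.4%), 4 and 4 in Hif1a OE against WT (3.15% and 6.12%) and 13 and 9 in Myc OE against WT (1.89% and 46.3%).

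**Figure D5:**
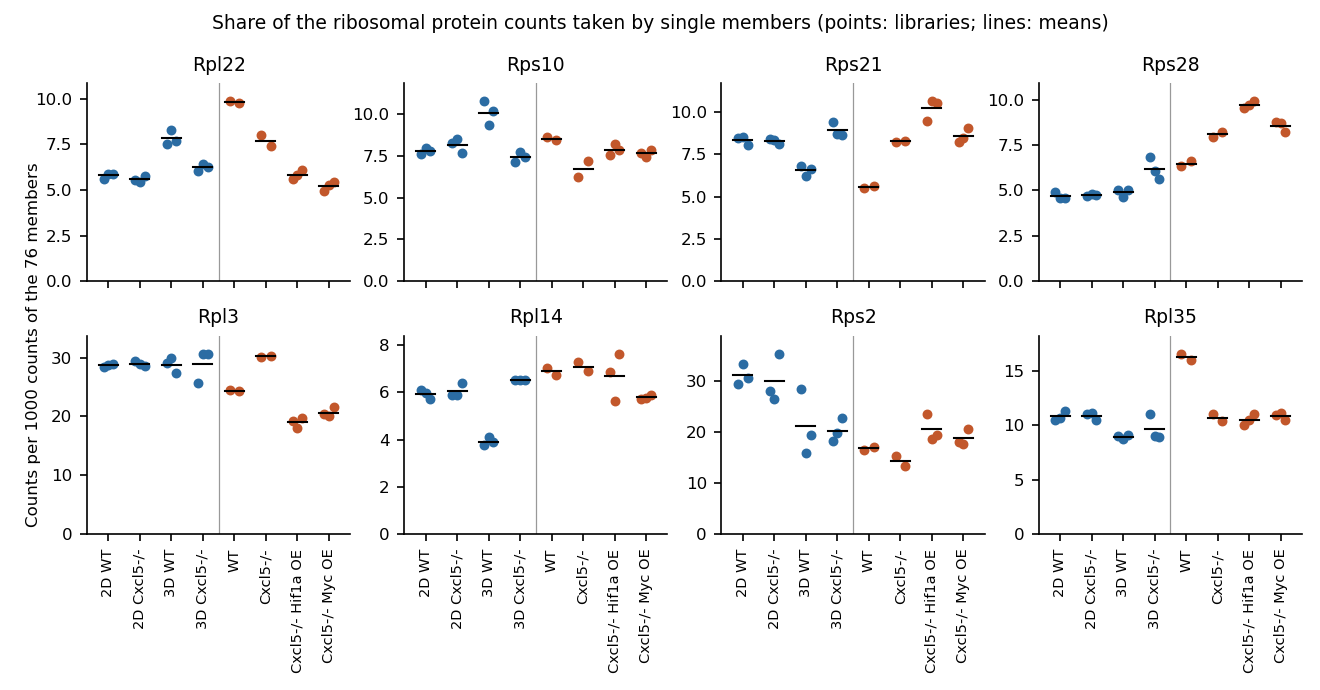
Counts of 8 members per 1000 counts of all 76 members (y axis, from 0) in each library of the 2D and 3D experiment (blue) and the rescue experiment (orange), with lines at the group means. Rpl22 and Rps10 are lower and Rps21 and Rps28 higher in Cxcl5-/- than in WT spheroids of both experiments, Rpl14 is low in 3D WT alone, Rpl35 is high in rescue WT alone, and Rpl3 is lower in both overexpressing groups than in Cxcl5-/-.

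Among related genes is Rpl22l1, the paralog of Rpl22. It measured 64.6 and 68.4 CPM in Cxcl5-/-, 71.0 and 76.4 in WT, 160, 217 and 115 in Hif1a OE and 332, 309 and 282 in Myc OE. The WT and Cxcl5-/- libraries were close, and both overexpressing groups lay above all 4 of them. It did not pass the test between Cxcl5-/- and WT (-0.15, adjusted p = 0.60) and was higher than WT in Hif1a OE (1.16, adjusted p = 0.00229) and Myc OE (2.06, adjusted p = 3.73e-05), while Rpl22 was lower than WT or level with it. The 4 ribosomal proteins that the naming rule leaves out, among them Rps3a1, Fau and Rack1, were all lower in Cxcl5-/- than in WT spheroids in both experiments, with medians of -0.97 and -1.15, and all higher in Hif1a OE and Myc OE than in Cxcl5-/- (1.52 and 2.14). Rack1, a scaffold on the small subunit, fell from 1750, 1444 and 1621 CPM to 966, 669 and 765 in 3D.

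Other mRNAs known to carry a TOP tract were counted in the same way. Of all genes, 25.3% were lower in 3D Cxcl5-/- than in WT and 24.3% in the rescue experiment, and 20.5% were higher in Hif1a OE and 21.6% in Myc OE than in Cxcl5-/-. Of 14 TOP mRNAs, 11 were lower and 1 higher in 3D Cxcl5-/- against WT (median -0.62), 12 were lower and 1 higher in the rescue experiment (-0.87), 12 were higher in Hif1a OE (0.55) and 13 in Myc OE (1.00) than in Cxcl5-/-. Eef1a1, the elongation factor that brings tRNA to the ribosome, had 7677 and 7556 CPM in rescue WT, 4262 and 4212 in Cxcl5-/-, 7573, 7717 and 6839 in Hif1a OE and 10740, 10357 and 10382 in Myc OE. Eif3f was the member that was higher in Cxcl5-/-, by 0.87 and 0.32, where Eif3e and Eif3h were lower. Mitochondrial ribosomal proteins, which build the separate ribosome of the mitochondrion, had 83 genes tested. Of these 55 were lower and 1 higher in 3D Cxcl5-/- against WT (median -0.47), 62 were lower in the rescue experiment (-0.65), and 81 in Hif1a OE and 79 in Myc OE were higher than in Cxcl5-/- (0.95 and 1.17). Between Myc OE and Hif1a OE 11 of the 83 were higher and 1 lower (0.17), beside 9.54% and 9.73% of all genes. The difference between the 2 families was not tested. The coding genes in the range of the family had medians of -0.49 in 3D and -0.44 in the rescue experiment for Cxcl5-/- against WT and of 0.51 in Hif1a OE and 0.49 in Myc OE against Cxcl5-/-, so those of the other TOP mRNAs in Hif1a OE and of the mitochondrial proteins in 3D lay close to them.

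Genes that control TOP mRNAs had no common direction. Eif4ebp1, which mTORC1 phosphorylates to release translation initiation, was lower in Cxcl5-/- spheroids, at 54.8, 48.2 and 49.95 CPM against 169, 138 and 172 in 3D WT (-1.65, adjusted p = 5.14e-08) and 40.6 and 42.1 against 134 and 139 in the rescue experiment (-1.73, adjusted p = 4.24e-06). Its relative Eif4ebp2 was higher (1.23 and 1.05), as were Tsc1 (1.04 and 0.47), Tsc2 (0.50 and 0.99) and Rptor (0.66 and 0.91). In all 5 of the 11 were higher and 3 lower in each experiment, beside 19.7% and 25.3% of all genes in 3D and 17.6% and 24.3% in the rescue experiment, and Larp1 was called in neither (0.09 and 0.06). A list of 7 dedicated chaperones and assembly factors of ribosomal proteins held Bccip, Grwd1, Heatr3, Ltv1, Rpf2, Rrs1 and Tsr2. Of these, 7 fell in 3D WT against 2D WT (median -1.13), where 22% of all genes fell. In 3D Cxcl5-/- against 2D Cxcl5-/- 7 fell (-1.39), where 28.2% of all genes did. Between the genotypes 2 were lower in 3D, a share near the 25.3% of all genes, and 5 in the rescue experiment, where 24.3% of all genes were lower. Grwd1, the chaperone of Rpl3, fell by 1.38 in WT and by 1.79 in Cxcl5-/- on the log2 scale. Of the 9 paralogs listed, 5 had enough counts to be tested in each of these tables.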

How the data were processed

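RNA from 31 Panc02 samples had been made into stranded total RNA libraries (TruSeq) and sequenced as read pairs on a NovaSeq, and the authors aligned the reads to GRCm38/mm10 with HISAT2 and counted with StringTie; the annotation release is not given in the sources used here. The deposited values are raw gene counts without normalization, in 3 tables, one per experiment, which were fitted separately. All value columns were used. Rows without a symbol held at most 0.205% of counts.

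Samples were grouped by the genotype, culture and treatment in their labels. Tests were made in R 4.3.3 with edgeR 4.0.16 (quasi-likelihood, TMM factors, low counts removed by filterByExpr), with all groups of a table in 1 fit and Benjamini-Hochberg adjustment over all genes tested. A call is an adjusted p under 0.05, and the SE is the log2 fold change divided by the square root of F. Levels are CPM of the TMM-scaled library, given as mean ± SD. A second fit took the summed count of the 76 genes as library size. Totals ran from 41542500 to 78498200 counts. Start sequences and promoters are from RefSeq tables of GRCm38.p6, and copies from alignments of coding sequences to annotated transcripts. The code was tested on simulated data.

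The 24 genes named by role, and for each comparison the 3 highest, the 3 lowest and up to 3 departing members in each direction, were named by rule, of which the text uses part. Values of some members are not reported here. Members and lists were chosen with earlier results of these data known. Rpl22l1, Eif4ebp1, Eif3f, Grwd1, Rps7, Rpl29 and Rpl35 in other comparisons, and Rps19 in Myc OE, were chosen for mention after their values were seen.

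Alternatives were DESeq2 1.42.0 and its size factors, library totals, TMM without the members, dropping the filter, a minimum of 10 counts per sample, a fold limit (absolute log2 of 1), only the groups compared, a replicate block, each sample left out, and other denominators of the share. Adding near-identical copies and a mean of at least 10 CPM were chosen after seeing the data.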

Additional observations from a re-analysis of the deposited data

Results flagged for a closer look

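The genotype effect differed between 3D and 2D, by the interaction test of edgeR with adjustment over all genes, for 59 members, and these are the values of those named by role or by size, as the log2 difference of the effect in 3D minus that in 2D. The stalk proteins Rplp0, Rplp1 and Rpl12 had -1.02, -0.70 and -0.66. Of the other large subunit members, Rpl34 had -1.26, Rpl22 -1.05, Rpl39 -0.96, Rpl4 -0.88, Rpl3 -0.80, Rpl5 -0.69, Rpl10 -0.68, Rpl13a -0.65 and Rpl11 -0.62. Of the small subunit, Rps16 had -2.42, Rps10 -1.28, Rps26 -1.18, Rps27 -0.998, Rpsa -0.92, Rps29 -0.86, Rps2 -0.80, Rps19 -0.76, Rps6 -0.73, Rps3 -0.69 and Rps27a -0.58. In each of them the effect in 3D was the lower one. The counts of Rps16 differed by up to 2.65-fold between libraries of 1 group, so its size is uncertain.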

How the results depend on the processing

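Of 378 alternative values of the 28 counts of called members, 322 stayed within 1.5 times, 46 were lower, 10 higher and 0 turned direction. An absolute log2 limit of 1 left 1 member in 3D WT against 2D WT, 42 in 3D against 2D Cxcl5-/-, 9 between the genotypes in 3D, 10 in the interaction, 6 in Myc OE against Hif1a OE, 1 in Hif1a OE against WT and 35 in Myc OE against WT, since the limit by construction removes smaller changes. Library totals gave 59 in 3D WT against 2D WT and 29 in the interaction, which had 37 without a filter. Fits of only the groups compared gave 1 between the genotypes in 2D and 6 in Hif1a OE against WT, for which DESeq2 size factors gave 8. The cause of these was not tested.

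The replicate numbers did not pair the samples: deviations of same-numbered samples correlated at 0.04, 0.02 and 0.00 on average in the 3 tables. With a replicate block the count was 45 for Hif1a OE against WT, and relative to the family 17 for rescue Cxcl5-/- against WT, 12 for Myc OE against Hif1a OE and 17 for Hif1a OE against WT; it changed no other count by over 1.5 times.

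Leaving out 1 sample gave 0 in all comparisons of the media, 16 to 26 in 3D WT against 2D WT, 75 to 75 in 3D against 2D Cxcl5-/-, 0 to 1 in 2D, 59 to 75 in 3D, 36 to 75 in the interaction, 69 to 73 in rescue Cxcl5-/- against WT, 74 to 75 and 75 to 76 in Hif1a OE and Myc OE against Cxcl5-/-, 39 to 73 between them, and 2 to 29 and 61 to 71 against WT. Relative to the family the ranges were, in the same order from 3D WT on, 16 to 27, 16 to 25, 0 to 1, 17 to 31, 6 to 19, 3 to 4 (11 with all samples), 3 to 16, 4 to 11 (15), 3 to 11, 2 to 11 and 6 to 20. A sample left alone in the rescue table was assumed to vary like the other groups. Among named members, 6492 of 6825 values kept side and sign, 223 were weaker, 108 stronger and 2 turned: Rpl14 between the genotypes in 3D with library totals (0.35) and Rpl17 in the interaction with copies added (-0.77). As a share of protein-coding counts, the ratio of Myc OE to Cxcl5-/- was 3.77 and that to WT 1.71, against 1.54 of all counts. With 2 or 3 samples a group, the spread between samples and not depth limits these values.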
